A study of Mus musculus with 9 samples.

Results

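The suppressor of cytokine signalling (SOCS) family comprises Cish, which encodes the protein CIS, and Socs1 to Socs7. The 8 genes were taken by name from a table of 25759 mouse genes, and all 8 were present, were above 0 in each of the 9 libraries and passed the filter on low values. The table holds RNA sequencing values for CD4+ T cells in 3 groups of 3 libraries, all from mice labelled C57BL/6, aged 8 to 12 weeks and carrying a Foxp3GFP reporter transgene. Activated knockout cells came from mice labelled BMPR1a/CD4cre, a conditional knockout of Bmpr1a, which encodes a receptor for bone morphogenetic proteins, in which the Cre recombinase is driven by the Cd4 promoter. Activated wild-type (WT) cells came from normal B6 mice. For both activated groups, mixed lymph node and spleen cells were cultured for 3 days with the T cell mitogen ConA at 2 ug/ml and LPS at 10 ng/ml, and CD4+ cells positive for CD44, negative for CD62L and negative for the reporter were then sorted. Naive WT cells were sorted uncultured from the same organs of the same kind of mouse as CD4+ cells that lacked CD44, carried CD62 as the label writes it, and were negative for the reporter. There were no naive knockout cells, so the genotypes can be set side by side only after activation. Culture, stimulation and the sort for CD44 cannot be told apart in the comparison of activated with naive cells. The labels do not state whether replicates are separate mice or cultures. The p-values therefore cover the spread among these libraries, which may be technical.

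Cytokines such as interleukin-2, interleukin-6 and the interferons bind receptors whose tails carry Janus kinases (JAKs), and these phosphorylate STAT transcription factors. STATs switch on several SOCS genes, whose proteins bind the receptors or the kinases through an SH2 domain and close a negative feedback loop. A SOCS box at the end of each protein binds elongins B and C and a cullin, forming a ubiquitin ligase that can mark bound proteins for degradation. CIS and SOCS2 are best known downstream of STAT5. SOCS1 and SOCS3 can inhibit JAKs directly, SOCS1 restraining interferon-gamma signalling and SOCS3 signalling through the interleukin-6 receptor chain gp130. SOCS4 to SOCS7 are less tied to cytokine induction, and SOCS6 and SOCS7 also bind other signalling proteins.

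Levels are given in FPKM, a fragment count scaled to transcript length and library size, whose underlying depth is unknown. The number of genes at 1 FPKM or more lay between 12922 and 13395 per library, and the summed FPKM of protein-coding genes lay between 533142 and 595891. Median-of-ratios size factors were 1.02 to 1.04 in the knockout libraries and 0.971 to 0.982 in the activated WT libraries, without overlap. The targeted gene Bmpr1a was read at 0.957, 1.93 and 1.2 FPKM in activated knockout, at 2.16, 2.92 and 1.40 in activated WT and at 0.460, 0.311 and 0.336 in naive WT cells. Its knockout level was not called different from activated WT (limma log2 fold change -0.41 with SE 0.21, adjusted p = 0.261). A gene-level value also counts reads from exons outside a deleted part, so these values do not settle the genotype label.

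Groups were compared by limma on log2(FPKM + 1) in 1 fit of all 9 libraries, with Benjamini-Hochberg adjustment over the 15126 genes that averaged 0.5 FPKM or more. Genes with an adjusted p below 0.05 are referred to as called. The log2 fold changes share that scale, which understates changes of low genes.

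After activation the SOCS family did not move as a block. In activated WT against naive WT cells, Socs2, Socs1 and Socs5 rose, Socs4 and Socs6 fell, and Cish, Socs3 and Socs7 did not pass the test. In bulk samples such as these, fewer cells of a type and less RNA per cell cannot be told apart. The 5 calls of 8 stand beside 52% of all tested genes called in this comparison (26.2% higher and 25.8% lower), so the share of members called was near the background. The median log2 fold change of the 8 members was 0.16, beside -0.0091 for all tested genes. The same 5 members were called in the same directions in activated knockout against naive WT cells, where 56.9% of tested genes were called (31.8% higher and 25.1% lower), and the naive libraries are shared between these comparisons. In activated knockout against activated WT cells limma called none of the 8 members, beside 4.14% of tested genes (3.3% higher and 0.84% lower). At an unadjusted p under 0.05 there were 3 members, Cish, Socs1 and Socs3, beside 25% of tested genes. At that unadjusted level 5 members passed in each comparison with naive cells, beside 58% of tested genes for activated WT and 61.8% for activated knockout. The 4.14% rests on 626 calls, a count that ran from 58 to 3851 over the alternatives tried. Of these calls 79.7% were higher in the knockout, but 54.2% were with median-of-ratios scaling and 56.5% with quantile normalization.

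**Figure D1:**
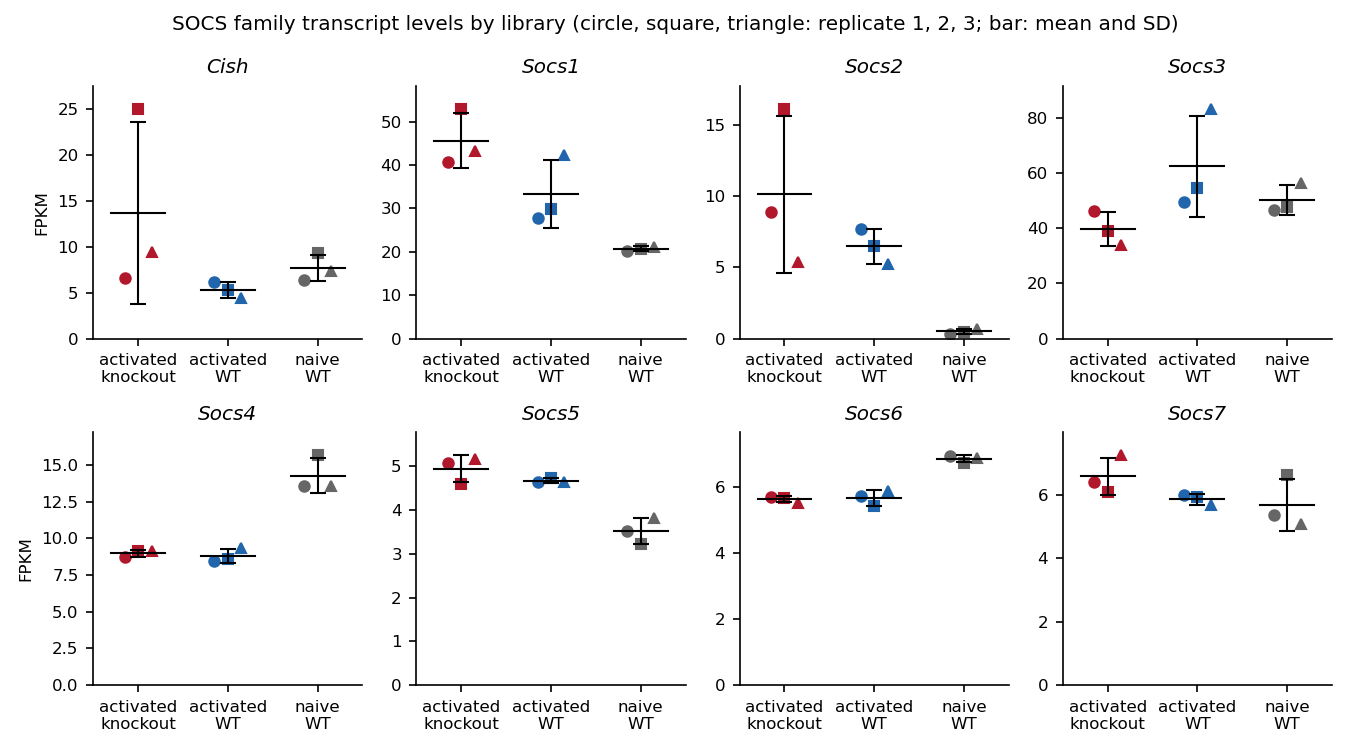
Level of each SOCS family gene in FPKM (y axis, from 0) in every library of activated knockout, activated WT and naive WT cells (x axis), with the mean and SD of each group. Socs2 is near 0 in naive cells, Socs4 is highest in naive cells, and replicate 2 of the knockout stands far above the other knockout libraries for Cish and Socs2.

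Summed over the family, the level was 135 ± 20.8 FPKM in activated knockout, 133 ± 24.6 in activated WT and 109.6 ± 6.24 in naive WT cells (SD, n = 3 each). Socs1 and Socs3 together held most of this sum in every library. Socs3 took 29.7% ± 5.78 of it in activated knockout, 46.6% ± 4.71 in activated WT and 45.9% ± 2.98 in naive WT cells. The share of Socs1 was 33.9% ± 2.34 in activated knockout, 25.0% ± 1.21 in activated WT and 18.9% ± 0.590 in naive WT cells.

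The order of the mean levels, per length of transcript, in activated knockout cells was Socs1, Socs3, Cish, Socs2, Socs4, Socs7, Socs6 and Socs5. There Socs1 overlapped with Socs3, Cish with Socs2, and Socs2 with Socs4 in their ranges over libraries, while the other neighbours did not overlap. In activated WT cells the order was Socs3, Socs1, Socs4, Socs2, Socs7, Socs6, Cish and Socs5. The top 3 did not overlap with their neighbours, and from Socs2 downward each gene overlapped with the next in its range over libraries. The naive WT order was Socs3, Socs1, Socs4, Cish, Socs6, Socs7, Socs5 and Socs2, where of the neighbours only Cish and Socs6 overlapped.

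**Figure D2:**
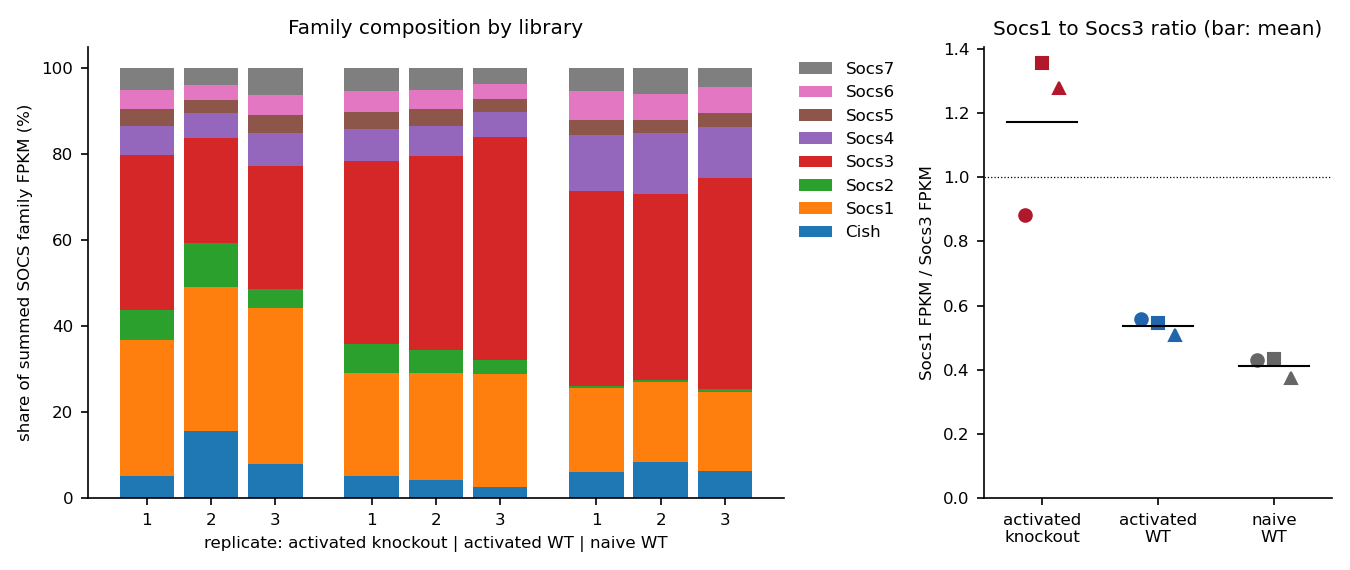
Left, share of each member in the summed SOCS family FPKM (y axis, percent) of every library. Right, Socs1 FPKM divided by Socs3 FPKM in every library, with the group mean as a bar. The ratio lies between 0.884 and 1.36 in activated knockout, between 0.507 and 0.560 in activated WT and between 0.374 and 0.433 in naive WT cells.

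Socs2, whose product is known from mice as a brake on growth hormone signalling and is also induced by STAT5, had the largest change of the family. It was at 8.90, 16.1 and 5.35 FPKM in activated knockout, at 7.68, 6.51 and 5.22 in activated WT and at 0.345, 0.481 and 0.675 in naive WT cells. Every activated library lay above every naive library, while the activated groups overlapped. The mean was 6.47 ± 1.23 FPKM in activated WT and 0.5 ± 0.166 in naive WT cells, a ratio of 12.9 (limma log2 fold change 2.31 with SE 0.32, adjusted p = 0.000724). In naive cells Socs2 was lowest of the family, with only 6.35% of tested genes below it. On activation it moved to the middle, above 39.5% of tested genes in activated WT and 48.5% in activated knockout cells. Activated knockout cells averaged 10.1 ± 5.5 FPKM, which did not pass the test against activated WT (log2 fold change 0.47, 95% interval -0.28 to 1.22, limma adjusted p = 0.419), and the log2 fold change was 0.099 without knockout replicate 2. Socs2 (ENSMUSG00000020027) is annotated on chromosome 10, minus strand, 95385362 to 95417180 in GRCm38.

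Cish encodes CIS, a STAT5-induced inhibitor that in mouse CD8 T cells also restrains T cell receptor signalling. It was at 6.54, 25.0 and 9.40 FPKM in activated knockout, at 6.09, 5.30 and 4.35 in activated WT and at 6.39, 9.25 and 7.35 in naive WT cells. Every activated WT library lay below every library of the other groups, while activated knockout and naive cells overlapped. The lower activated WT level was not called against naive WT cells (log2 fold change -0.47, 95% interval -1.41 to 0.47, limma adjusted p = 0.365). That fit of all 9 libraries also takes in the spread of the knockout. With only the 6 libraries compared the limma adjusted p was 0.0594. Without knockout replicate 2 it was 0.069, so the difference came nearer to the threshold but was still not called. Cish was thus not called higher after activation, unlike Socs2 in the same libraries.

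The knockout mean of Cish was 13.6 ± 9.91 FPKM, against 5.25 ± 0.870 in activated WT cells, a ratio of 2.60. This difference missed the threshold (log2 fold change 1.03, 95% interval 0.09 to 1.97, limma adjusted p = 0.165; exact permutation p = 0.1, the smallest that 3 against 3 libraries allow). Replicate 2 carried much of it. Without that library the log2 fold change was 0.51 (limma adjusted p = 0.25), and the remaining knockout libraries, at 6.54 and 9.40 FPKM, still lay above all 3 activated WT libraries. The coefficient of variation of Cish in the knockout was 72.7%, larger than that of 97.0% of the 13506 tested genes with a knockout mean of at least 1 FPKM, and it was 16.6% in activated WT and 19.0% in naive WT cells. Cish (ENSMUSG00000032578, plus strand of chromosome 9, 107296026 to 107302784) overlaps the annotated antisense transcript Gm17041, which was read at 10.3, 28.0 and 10.9 FPKM in activated knockout, 7.08, 6.00 and 4.45 in activated WT and 5.75, 10.3 and 6.67 in naive WT cells. No source used here gives the strand setting, so reads of Cish and of this antisense transcript cannot be told apart.

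RefSeq promoter windows, which run from 250 bases before to 50 after a gene start, were held for 4 of the 8 members, namely Cish, Socs1, Socs3 and Socs4. They were searched for the STAT motif TTCNNNGAA and for its longer form TTCNNNNGAA. Both read the same on either strand, and no match of one overlapped a match of the other in these windows. The stretches that hold the matches are shown because both genes are known STAT targets, with the motif in capitals, 5′ to 3′ on the strand of the gene.
Cish: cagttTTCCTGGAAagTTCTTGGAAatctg
Socs3: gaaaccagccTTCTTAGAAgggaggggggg
The Cish stretch is chr9:107296654-107296683 (GRCm38.p6, plus strand), and its 2 matches cover bases 1 to 20 counted from the RefSeq start, which lies inside the longer gene span of the other annotation given above. The Socs3 stretch is chr11:117969501-117969530 (GRCm38.p6, minus strand), with its match at bases -154 to -146 counted from the RefSeq start. In the other annotation this Socs3 stretch too lies inside the gene span, downstream of the start given there. The window first chosen for the search was the 250 bases before the start, where Cish held no match, Socs3 held 1 and 7.02% of 32851 RefSeq windows held TTCNNNGAA (5.85% for TTCNNNNGAA). The 50 bases after the start, which hold both Cish matches, were added later. Over the full 300 bases, 8.3% held TTCNNNGAA and 0.457% held it at least 2 times. TTCNNNNGAA was in 6.95% of windows and in none of the 4 held for the family. The windows of Socs1 and Socs4 held neither set of letters. These matches describe the sequence only, and the data hold no measurement of binding.

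Replicate 2 of the knockout was also high for Il2ra and Ifng, which were picked out after their values were seen. Il2ra, the inducible alpha chain of the interleukin-2 receptor, was at 57.7, 173 and 71.7 FPKM in activated knockout, at 73.3, 56.4 and 44.2 in activated WT and at 1.68, 1.79 and 2.05 in naive WT cells. Ifng, which encodes interferon-gamma, was at 4.64, 34.4 and 6.64 FPKM in activated knockout, 3.94, 2.26 and 1.49 in activated WT and 0.0610, 0.193 and 0.374 in naive WT cells. Neither was called between knockout and activated WT (limma adjusted p = 0.333 for Il2ra and 0.138 for Ifng). In replicate 2 the level was 2.65 times the higher of the other 2 knockout libraries for Cish, 1.81 times for Socs2, 2.42 times for Il2ra and 5.19 times for Ifng. Such a lead of at least 1.5 times was seen in 2.49% of the 13506 genes. By any margin, 31.4% of these genes were highest in replicate 2. Other cytokine genes were divided. Il10, at 0.994, 3.14 and 1.45 FPKM in activated knockout, and Il21, at 2.74, 4.21 and 3.13, were also highest in replicate 2. Il2, which encodes interleukin-2, was at 1.25, 0.934 and 2.25 FPKM in activated knockout, lowest in replicate 2, and Csf2 was at 3.88, 1.17 and 0.724, highest in replicate 1, as were Il13 and Il3. Socs1 was highest in replicate 2, but Socs3 was not.

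**Figure D3:**
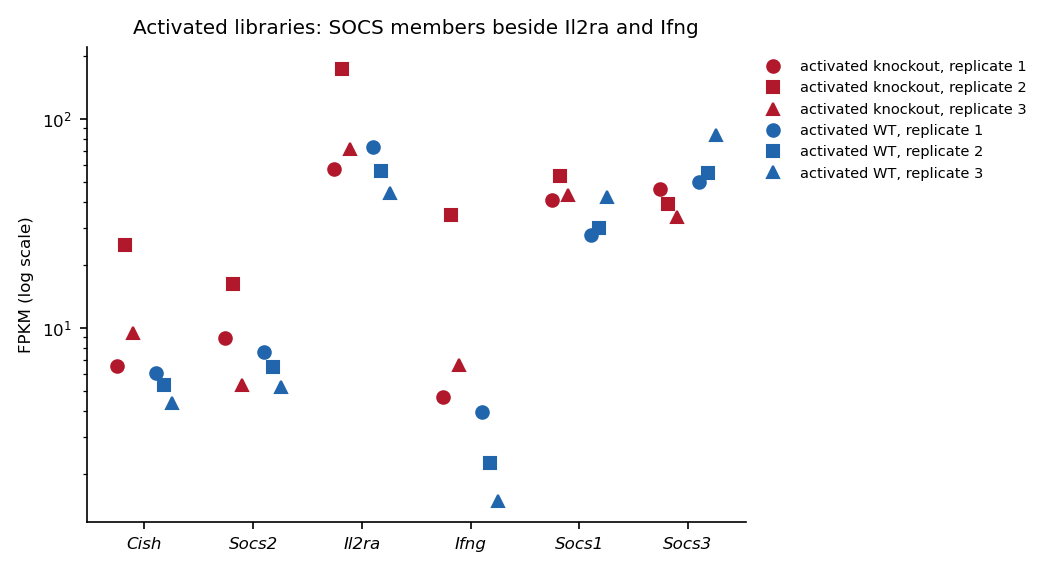
FPKM (y axis, log scale) of 4 SOCS members, Il2ra and Ifng in each activated library, knockout left of WT, with a marker shape for each replicate. The square of the knockout, replicate 2, leads for Cish, Socs2, Il2ra and Ifng, where it stands at 25.0, 16.1, 173 and 34.4 FPKM. It is also highest for Socs1, at 53.0 FPKM, but not for Socs3.

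Socs1, the main restraint on interferon-gamma and common gamma chain cytokine signalling in mouse T cells, stood at 40.8, 53.0 and 43.3 FPKM in activated knockout, 27.7, 29.9 and 42.3 in activated WT and 20.1, 20.7 and 21.2 in naive WT cells. All activated libraries lay above all naive ones. It rose to 33.3 ± 7.88 FPKM in activated WT, against 20.7 ± 0.545 in naive WT cells (limma log2 fold change 0.64 with SE 0.16, adjusted p = 0.011). Activated knockout cells averaged 45.7 ± 6.43 FPKM, which was 1.37 times that of activated WT, and replicate 1 of the knockout lay below replicate 3 of activated WT. The difference was not called (log2 fold change 0.46, 95% interval 0.090 to 0.83, limma adjusted p = 0.129), except with array quality weights (0.53, limma adjusted p = 0.0184, where the 18 alternatives spanned 0.0184 to 0.326). With these weights 3851 of the 15126 tested genes were called in this comparison. Socs1 (ENSMUSG00000038037) is annotated on chromosome 16, minus strand, 10782240 to 10785536.

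Socs3, which binds gp130 and limits STAT3 signalling, stood at 46.2, 39.1 and 33.8 FPKM in activated knockout, 49.5, 54.7 and 83.4 in activated WT and 46.7, 47.9 and 56.7 in naive WT cells. Each knockout library lay below each library of both other groups, although the highest knockout and the lowest naive library were close. Activated WT and naive WT cells overlapped and were not called different (log2 fold change 0.27, 95% interval -0.19 to 0.74, limma adjusted p = 0.282). In activated knockout cells the mean was 39.7 ± 6.20 FPKM, against 62.6 ± 18.3 in activated WT cells, a ratio of 0.634. The difference missed the threshold (log2 fold change -0.62, 95% interval -1.08 to -0.15, limma adjusted p = 0.113), except with array quality weights (-0.59, limma adjusted p = 0.0277, where the 18 alternatives spanned 0.0277 to 0.314). Those weights gave 3851 calls among the 15126 tested genes. Without replicate 3 of activated WT, which was the highest library, the log2 fold change of Socs3 was -0.39 (limma adjusted p = 0.169). Knockout against naive WT was not called (log2 fold change -0.34, limma adjusted p = 0.178). Socs3 (ENSMUSG00000053113) is annotated on chromosome 11, minus strand, 117966079 to 117970047.

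Socs1 and Socs3 thus differed from activated WT in opposite directions in the knockout, neither of them called. Their ratio within a library, which no scaling of whole libraries can change, was looked at after the values were seen and carries no test. Socs1 FPKM divided by Socs3 FPKM was 0.884, 1.36 and 1.28 in activated knockout, 0.560, 0.547 and 0.507 in activated WT and 0.431, 0.433 and 0.374 in naive WT cells. The 3 groups did not overlap, and Socs1 exceeded Socs3 in replicates 2 and 3 of the knockout and in no WT library. Of the 28 ratios that 8 members allow, 11 did not overlap between knockout and activated WT. The count was 22 between activated WT and naive WT and 20 between knockout and naive WT. Many of these ratios share a member, and ratios of genes outside the family were not counted. For single genes, knockout and activated WT did not overlap at 31.2% of those tested, and 3 of the 8 members, Cish and Socs7 higher and Socs3 lower in the knockout, were among them.

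Socs4 and Socs5, a pair of long-tailed members studied mostly as regulators of the epidermal growth factor receptor, changed on activation in opposite directions. Socs4 was at 8.71, 9.11 and 9.11 FPKM in activated knockout, 8.44, 8.60 and 9.38 in activated WT and 13.6, 15.7 and 13.6 in naive WT cells. It fell to 8.80 ± 0.501 FPKM in activated WT, against 14.3 ± 1.2 in naive WT cells (limma log2 fold change -0.64 with SE 0.075, adjusted p = 0.00031), and all activated libraries lay below all naive ones. Socs5 was at 5.08, 4.60 and 5.16 FPKM in activated knockout, 4.64, 4.73 and 4.65 in activated WT and 3.52, 3.23 and 3.82 in naive WT cells. All activated libraries lay above all naive ones here, and the mean rose to 4.67 ± 0.0517 FPKM in activated WT, against 3.52 ± 0.293 in naive WT cells (limma log2 fold change 0.33 with SE 0.077, adjusted p = 0.008). Between knockout and activated WT the log2 fold change was 0.026 for Socs4 (95% interval -0.15 to 0.20) and 0.067 for Socs5 (95% interval -0.11 to 0.24). These small values turned negative with quantile normalization, and that of Socs4 also with median-of-ratios scaling. Socs4 (ENSMUSG00000048379) lies on the plus strand of chromosome 14 at 47276931 to 47296102, and Socs5 (ENSMUSG00000037104) on the plus strand of chromosome 17 at 87107679 to 87137839.

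Socs6, whose product can bind the T cell kinase Lck, was at 5.71, 5.68 and 5.53 FPKM in activated knockout, 5.72, 5.41 and 5.88 in activated WT and 6.93, 6.73 and 6.90 in naive WT cells. The spread within groups was small, and all activated libraries lay below all naive ones. It fell to 5.67 ± 0.237 FPKM in activated WT, against 6.85 ± 0.105 in naive WT cells (limma log2 fold change -0.24 with SE 0.060, adjusted p = 0.012). This call was lost without replicate 2 of activated WT (log2 fold change -0.21, limma adjusted p = 0.0519). Knockout and activated WT differed by -0.0064 on the log2 scale (95% interval -0.15 to 0.13), and the sign turned in 3 of 18 alternatives.

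Socs7, whose product binds the adaptor Nck, was at 6.40, 6.09 and 7.24 FPKM in activated knockout, 5.99, 5.93 and 5.67 in activated WT and 5.36, 6.62 and 5.09 in naive WT cells. The knockout libraries lay above those of activated WT and overlapped with the naive ones. No comparison was called. The log2 fold change was 0.14 in knockout against activated WT (95% interval -0.10 to 0.38, limma adjusted p = 0.436) and 0.043 in activated WT against naive WT cells (95% interval -0.19 to 0.28, limma adjusted p = 0.748), where the sign turned with quantile normalization. Socs6 (ENSMUSG00000056153, minus strand, 88665224 to 88927481) and Socs7 (ENSMUSG00000038485, plus strand, 97362551 to 97398542) lie on chromosomes 18 and 11.

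**Figure D4:**
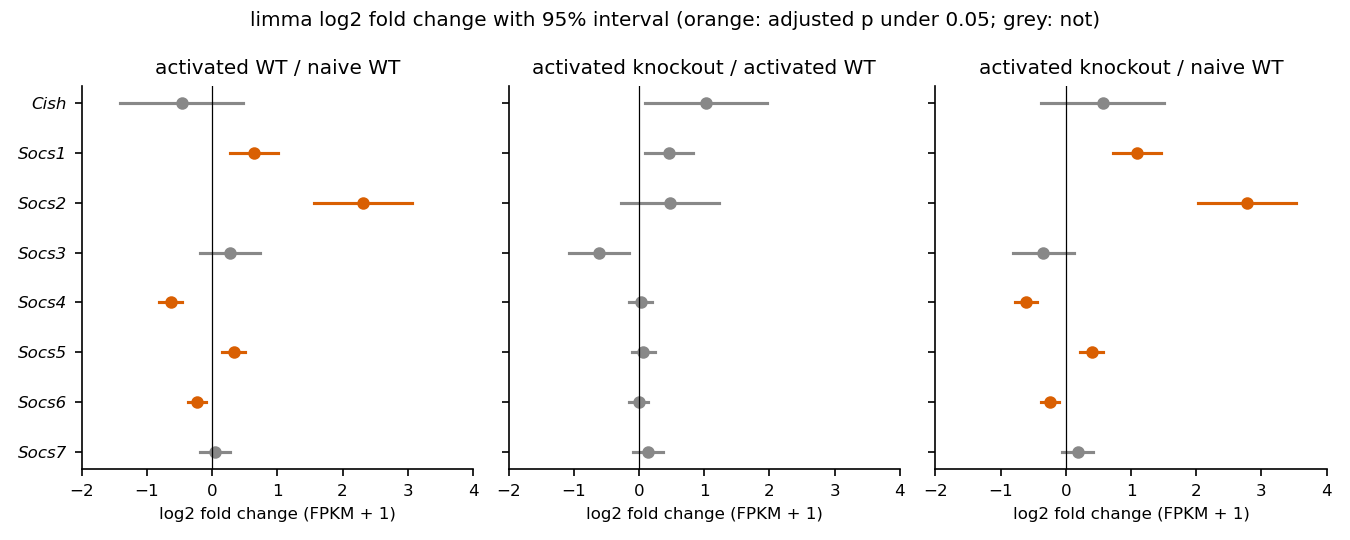
limma log2 fold change on log2(FPKM + 1) (x axis) with its 95% interval for each member (rows) in activated WT over naive WT, activated knockout over activated WT and activated knockout over naive WT cells. Socs1, Socs2, Socs4, Socs5 and Socs6 are called, in orange, in both comparisons with naive cells, and no member is called between the activated groups.

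Set side by side against the shared naive libraries, the log2 fold changes of the 5 called members were 1.1 in activated knockout and 0.64 in activated WT for Socs1, and 2.78 in activated knockout and 2.31 in activated WT for Socs2. For Socs4 they were -0.61 in activated knockout and -0.64 in activated WT cells. Socs5 had 0.40 in activated knockout and 0.33 in activated WT cells, and Socs6 -0.24 in each. The groups did not overlap for 6 of 8 members in each of these comparisons, beside 63.8% of tested genes for knockout and 59.4% for activated WT.

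In activated WT against naive WT cells, where 52% of all tested genes were called (26.2% higher and 25.8% lower) at a median log2 fold change of -0.0091, some genes upstream of the SOCS genes were called and others were not. Of the 4 JAK kinases Jak3, which pairs with the common gamma chain, and Jak2 rose, a share near that background. Jak1 (log2 fold change -0.28, limma adjusted p = 0.0553) and Tyk2 (-0.12, limma adjusted p = 0.37) did not pass the test. Jak3 averaged 117 ± 3.74 FPKM in activated WT and 41.4 ± 2.40 in naive WT cells (log2 fold change 1.48, limma adjusted p = 1.5e-05). Among the STAT genes described here Stat4, which acts downstream of interleukin-12, rose (log2 fold change 1.48). Stat6, the factor of interleukin-4, fell (-0.47). Stat5b rose (0.27), and Stat5a was at 0.14 without a call (limma adjusted p = 0.216).

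Among 24 receptor chains that signal through JAKs, 20 were tested, and 10 rose and 6 fell, with a median log2 fold change of 0.34. The 16 calls of 20 stand beside the 52% of all tested genes called, and the 10 that rose beside 26.2%. The largest rises were those of Il12rb2 (156 ± 17.3 FPKM in activated WT and 0.769 ± 0.121 in naive WT cells) and Il2ra (57.9 ± 14.6 FPKM in activated WT and 1.84 ± 0.192 in naive WT cells). The chains of the interleukin-6 receptor, of which SOCS3 binds gp130, were among those that fell. Il6ra averaged 17.9 ± 3.61 FPKM in activated WT and 79.5 ± 7.27 in naive WT cells, and Il6st, the gene of gp130, 25.7 ± 4.39 FPKM in activated WT and 52.9 ± 9.79 in naive WT cells. The chains of the interferon-gamma receptor moved apart, with Ifngr1 higher (log2 fold change 2.44) and Ifngr2 lower (-1.35). These 4 chains were picked out after their values were seen. Among 10 cytokine genes 6 were tested, of which Il21 (1.39) and Il10 (0.79) rose.

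Of the 6 genes of the SOCS box ubiquitin ligase, Elob (log2 fold change 0.35), Eloc (0.33) and Rnf7 (0.20) rose and the cullin gene Cul5 fell (-0.39), while Ube2f and Arih2 were not called. Among 11 other restraints on JAK-STAT signalling, 3 rose and 3 fell, with a median log2 fold change of 0.020. These 6 calls of 11 are a share near the 52% of all tested genes called in this comparison, beside which the 4 of 6 ligase genes, 7 of 10 STAT5 response genes and 6 of 8 interferon response genes called also stand. The phosphatase gene Ptpn1 rose (0.50) and the adaptor gene Sh2b3, whose product Lnk restrains JAK2, fell to 8.10 ± 1.66 FPKM in activated WT, against 16.9 ± 0.821 in naive WT cells. Of 10 known STAT5 response genes 5 rose, led by Il2ra and Pim2 (log2 fold change 2.14), and Bcl2 (-0.67) and Ccnd2 (-0.63) fell. Of 8 interferon response genes Gbp2 (3.06), Gbp3 (2.08) and Irf1 (0.51) rose, and Ifit3 (-1.82), Isg15 (-1.52) and Ifit1 fell.

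Between activated knockout and activated WT cells none of the 4 JAK, 20 receptor, 6 cytokine, 6 ligase and 11 restraint genes tested was called by limma. At an unadjusted p under 0.05 there were 1, 2, 1, 3 and 2 of them in that order, beside 25% of all tested genes. Closest to the threshold was Jak3, at 89.4 ± 9.92 FPKM in activated knockout and 117 ± 3.74 in activated WT cells (log2 fold change -0.39, limma adjusted p = 0.0515), and Elob was next (0.35, limma adjusted p = 0.0694). The gp130 partner Il6ra was at 14.97, 8.33 and 7.67 FPKM in activated knockout and at 13.8, 19.6 and 20.4 in activated WT cells (log2 fold change -0.78, limma adjusted p = 0.103). Il6st, the gene of gp130 itself, had a log2 fold change of -0.20 (limma adjusted p = 0.506). The other receptor chain with an unadjusted p under 0.05 was Il7r (log2 fold change -0.50, limma adjusted p = 0.132). Of the 10 STAT5 response genes only Bcl2l1, which encodes the survival protein Bcl-xL, was called, higher in the knockout (log2 fold change 0.93, limma adjusted p = 0.0107). In this comparison 4.14% of all tested genes were called. At an unadjusted p under 0.05 there were 3 of the 10, beside 25% of all tested genes. Of these, Bcl2l1 and Pim2 (log2 fold change 0.33) were higher and Pim1 (-0.47) lower in the knockout. None of the 8 interferon response genes was called, and 2 had an unadjusted p under 0.05.

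**Figure D5:**
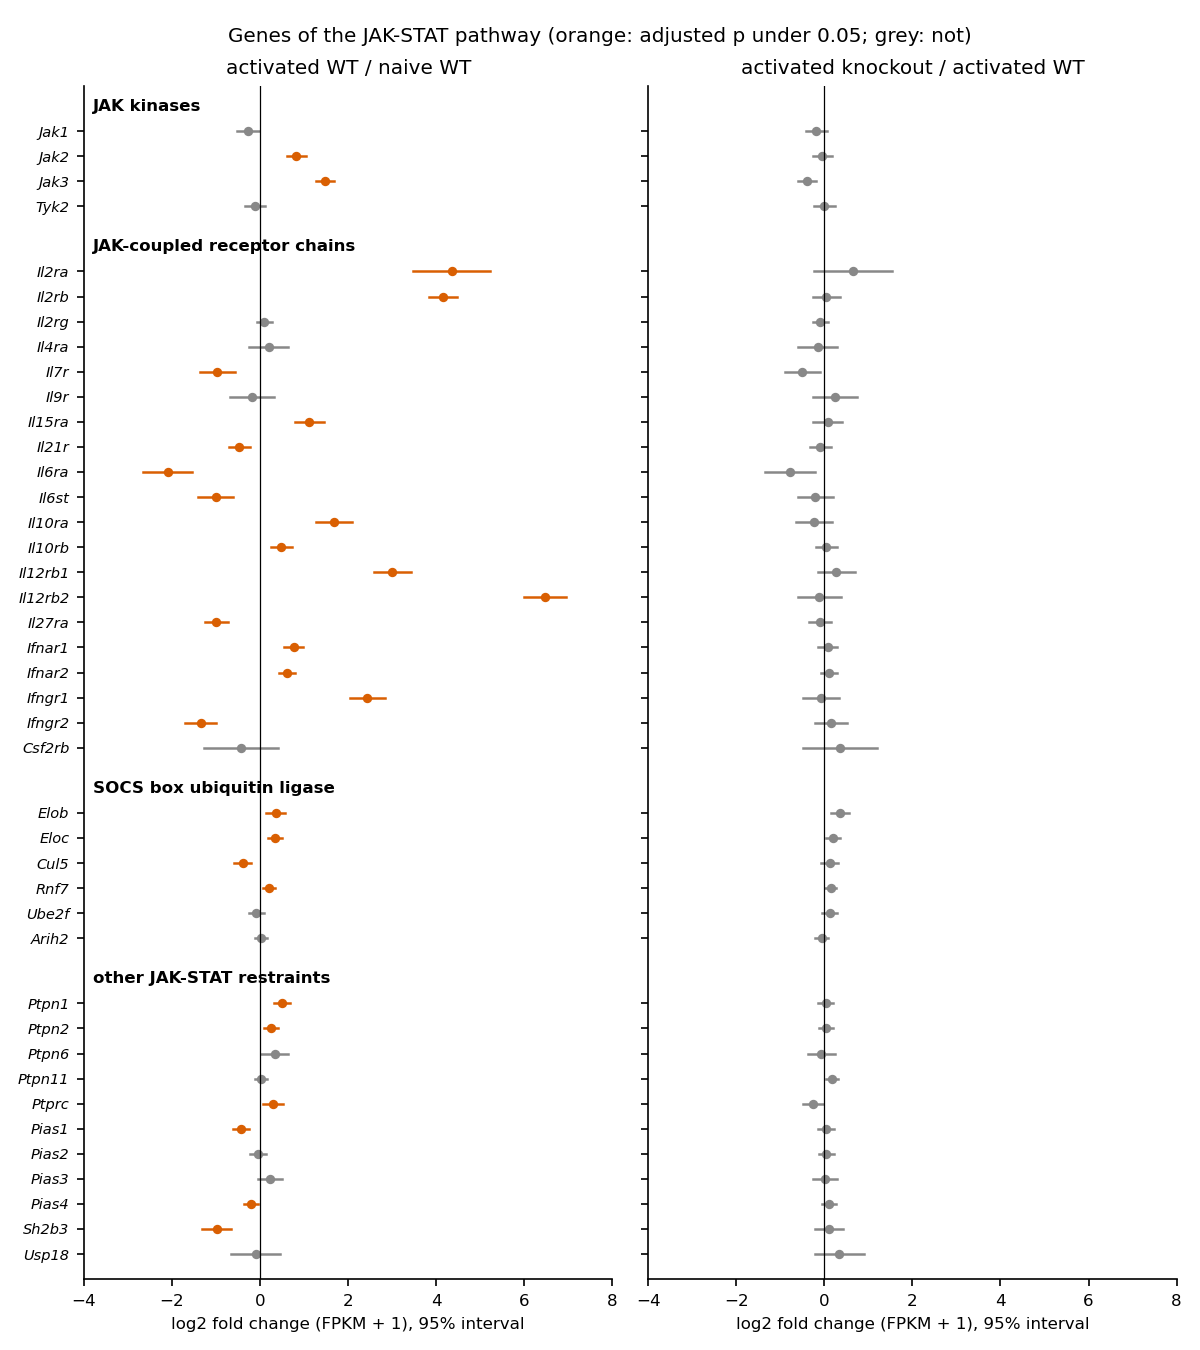
limma log2 fold change (x axis) with its 95% interval for tested genes of 4 JAK-STAT lists (rows), in activated WT over naive WT and in activated knockout over activated WT cells. Orange marks genes called at an adjusted p under 0.05, all of which are in the comparison with naive cells.

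For the 3 members with the widest range between group means, the genes nearest in pattern were taken by the root mean square difference of log2(FPKM + 1) over the 9 libraries, each gene centred on its own mean. Nearest to Socs2 were Gpr55, at a difference of 0.26, Ccr4, which encodes a chemokine receptor, at 0.27, and Emp1 at 0.28. Ccr4 was at 8.89, 14.0 and 5.43 FPKM in activated knockout, 6.77, 5.51 and 5.65 in activated WT and 0.958, 1.03 and 1.16 in naive WT cells, with its highest value in the same library as Socs2. For Socs1 they were St6galnac4 (0.13), the low-level Syngr4 (0.13) and the zinc transporter gene Slc39a6 (0.14). Slc39a6 averaged 15.7 ± 1.98 FPKM in activated knockout, 10.9 ± 0.676 in activated WT and 7.62 ± 0.214 in naive WT cells. Those nearest to Cish were H2-T3, which has close copies in the genome and is uncertain, at 0.31, Car12 at 0.33 and Gpr65 at 0.34.

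The sorted cells carried the T cell markers, whose sum over 5 genes was 1633 to 1811 FPKM in activated knockout, 1846 to 1972 in activated WT and 1514 to 1629 in naive WT cells. Cd4 averaged 306 ± 40.1 FPKM in activated knockout, 347 ± 7.78 in activated WT and 312 ± 23.7 in naive WT cells. Although all groups were sorted as negative for the Foxp3 reporter, Foxp3 was read in each. Its level was 5.89, 2.21 and 4.31 FPKM in activated knockout cells. In activated WT cells it was 1.02, 0.989 and 0.867 FPKM, below every knockout library, and in naive WT cells 2.79, 2.73 and 2.43. Markers of other cells were present as well. The sum of 2 CD8 markers was 219.6 to 279 FPKM in activated knockout, 147 to 230 in activated WT and 9.48 to 41.4 in naive WT cells, and 2 of 2 were called higher in activated WT than in naive WT cells. The 5 NK cell markers summed to 161 to 214 FPKM in activated knockout, 164 to 193 in activated WT and 28.3 to 65.1 in naive WT cells. Klrd1 and Klrk1 made up nearly all of the activated sums and were called higher in activated WT than in naive WT cells, whereas Tyrobp (log2 fold change -2.96) and Klrb1c (-1.06) were called lower. The defining marker Ncr1 was at 0.0334 ± 0.0217 FPKM in activated knockout, 0.00684 ± 0.0119 in activated WT and 0.924 ± 0.441 in naive WT cells. Klrk1, which CD8 T cells also express, was called higher in the knockout than in activated WT (log2 fold change 0.80, limma adjusted p = 0.0232). The 5 B cell markers summed to 115 to 175 FPKM in activated knockout and 125 to 158 in activated WT cells. In naive WT replicates 1, 2 and 3 they summed to 51.8, 2.79 and 167 FPKM.

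Granulocyte markers ran the other way, with sums over 7 genes of 0.131 to 1.22 FPKM in activated knockout, 0.114 to 0.392 in activated WT and 54.8, 672 and 108 in naive WT replicates 1, 2 and 3, and 2 of the 7 were listed at 0 in all activated WT libraries. The 6 macrophage and monocyte markers summed to 7.58 to 10.4 FPKM in activated knockout, 10.3 to 12.2 in activated WT and 24.3, 198 and 59.0 in the naive WT replicates. The 6 erythroid markers summed to 5.20 to 11.3 FPKM in activated knockout, 3.44 to 4.54 in activated WT and 63.6 to 84.3 in naive WT cells. Of these Hemgn went against the sum, at 4.23, 9.58 and 8.87 FPKM in activated knockout, 3.52, 2.62 and 2.67 in activated WT and 0.132, 0.108 and 0.0601 in naive WT cells. It was called higher in activated WT than in naive WT cells (log2 fold change 1.83) and made up most of the activated sums, while 4 globin genes were called lower. The 4 dendritic cell markers summed to 1.38 to 1.91 FPKM in activated knockout, 1.59 to 1.89 in activated WT and 1.02 to 5.90 in naive WT cells. Socs3, which myeloid cells also express, was at 47.9 FPKM in naive replicate 2, between the other naive libraries, as were Socs1 and Socs2. Cish (9.25 FPKM), Socs4 (15.7) and Socs7 (6.62) were highest in that replicate among the naive libraries. Socs5 (3.23 FPKM) and Socs6 (6.73) were lowest there. In naive replicate 3, where the B cell sum was highest, Socs1, Socs2, Socs3 and Socs5 were highest among the naive libraries. Socs4 and Socs7 were lowest in replicate 3, and Cish and Socs6 lay between the other naive libraries. The part of the other cell types in the differences of the SOCS genes between groups was not tested.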

How the data were processed

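Per the labels, total RNA from sorted mouse CD4+ T cells was made into Illumina libraries, 3 each of activated knockout, activated WT and naive WT. The authors deposited FPKM per gene as 1 table. TopHat2, Cufflinks, Cuffdiff and build GRCm38 are named in the submitters' processing notes. Tool versions, annotation, strand setting and treatment of reads with several alignments: not given in the sources used here. Values are fractional estimates, so depth is unknown and no counting interval was computed.

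Of 25759 gene identifiers, 24876 matched a symbol. Groups came from the sample titles. No library pair shared more than 2 identical values above 0. Positions are from GENCODE M21 (GRCm38). The 15126 genes averaging 0.5 FPKM or more were compared by limma 3.58.1 (R 4.3.3) on log2(FPKM + 1) (group means, intensity trend, two-sided, no covariate, Benjamini-Hochberg), a step tested on simulated data. Exact two-sided permutation tests used SciPy 1.17.1. Named outside the family were, per pathway list, the most changed called genes, and genes singled out after their values were seen. The members and lists were chosen with earlier results of these data known. The 18 alternatives covered the pseudocount, filter, scaling, libraries fitted, weights, trend, replicate block and each library left out. The STAT list is described in part, and its other results are not reported here.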

Additional observations from a re-analysis of the deposited data

How the results depend on the processing

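The 5 calls among the members in activated WT against naive WT cells, and the 5 in activated knockout against naive WT cells, kept direction and call under all 18 alternatives, except that of Socs6 on activation without activated WT replicate 2 (-0.21, limma adjusted p = 0.0519). With a pseudocount of 0.1 the log2 fold change of Socs2 on activation was 3.47, against 2.31 with 1. In knockout against activated WT, 626 genes were called. The count was 416 with no filter, 306 with median-of-ratios scaling (54.2% higher, against 79.7% as deposited), 324 with quantile normalization (56.5% higher), 100 with only the 6 libraries compared, 3851 with array quality weights, 58 with the replicate block, and 64 to 1040 with a library left out. It was 149 without naive WT replicate 1, 282, 64 and 241 without activated WT replicate 1, 2 and 3, and 1040, 93 and 67 without knockout replicate 1, 2 and 3. The SOCS members called were 2, Socs1 and Socs3, with array quality weights and 0 under every other alternative. The 2 of 8 members stand beside 3851 of 15126 tested genes called with these weights. The weights ran from 0.414 for naive WT replicate 3 to 4.05 for naive WT replicate 1. The cause of these changes in the counts was not tested. The sign of small differences turned. For knockout against activated WT it became -0.043 for Socs4 with median-of-ratios scaling and -0.062 with quantile normalization, -0.014 for Socs5 with quantile normalization and 0.015 for Socs6 with array quality weights. With a library left out, Socs4 ran from -0.00067 to 0.068 and Socs6 from -0.035 to 0.016. For activated WT against naive WT, Socs7 was at -0.0029 with quantile normalization and from -0.021 to 0.14 with a library left out. Against naive WT, knockout Socs3 was called lower with quantile normalization (-0.52), which moved the median of all tested genes to -0.08 from 0.04, and Socs7 higher with array quality weights (0.27) and without naive WT replicate 2 (0.28). Same-numbered replicates correlated at 0.0027 to 0.054 in their deviations from group means, and differently numbered ones at -0.0682 to 0.0375. Such weak correlations cannot settle whether a number stands for a shared mouse or day. Each library correlated best with its own number between activated WT and naive WT but not in the other comparisons, and the block changed no member's call. The values give no read counts, so the precision of low levels such as naive Socs2 is unknown.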
